A study of Mus musculus with 44 samples.

Results

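The WASP inhibitor wiskostatin was compared with its solvent DMSO in AsiSI-MEFs, with chromosome translocations as the readout. The comparison was defined by the labels and held the 2 libraries with wiskostatin and the 2 libraries labelled as their controls, 4 of the 44 samples of the series. The tables of the 4 libraries held 27815 junctions, of 148726 in the 32 HTGTS tables. All 4 libraries came from C57BL/6 mouse embryonic fibroblasts of wild-type genotype that carry an inducible AsiSI fused to the oestrogen receptor. In all of them doxycycline (3 µg/ml, 24 h) induced the enzyme and 4-hydroxytamoxifen (4OHT, 1 µg/ml, the last 6 h) brought it into the nucleus. The treated cells received wiskostatin (3 µM) and the controls DMSO, both together with 4OHT. The age of the embryos and the number of independent lines were not given in the sources used here. By the names of the reads, replicate 1 of both groups was sequenced in one run and replicate 2 in another, so libraries were compared within a pair. An exact sign-flip test over 2 pairs gives p = 0.5 at the least, so no p-value for the treatment is given.

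WASP-family proteins bind the ARP2/3 complex and switch on its nucleation of branched actin filaments, and wiskostatin stabilises the closed, inactive form of N-WASP. In the nucleus this pathway has been linked to the movement and clustering of double-strand breaks (DSBs) under repair. AsiSI cuts the sequence GCGATCGC, many copies of which lie in the CpG-rich start regions of genes, and leaves short 3′ overhangs. High-throughput genome-wide translocation sequencing (HTGTS) amplifies from one fixed break, the bait, and reads the sequence joined to it, the prey. Each junction therefore shows which site was joined, which of its ends was used, how many bases were lost, and whether bases were shared or inserted.

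The bait was the AsiSI motif at mm10 chr2:13271317-13271324, which lies in an untranslated region of Rsu1, 10 bp from its transcription start. Rsu1 encodes an adhesion protein that binds the PINCH-ILK complex. A leading prey, the motif at chr2:20968930-20968937, lies between genes, 53 bp from the start of Arhgap21. The reads that join this pair of motifs show the main kinds of junction in the 4 libraries, and capitals mark what is left of the motif.
Bait reference, chr2:13271306-13271335, plus strand: accctgtcccaGCGATCGCgcaggcgcaca
Prey reference, chr2:20968919-20968948, plus strand: ctcccgcgcccGCGATCGCcgagcgcgaga
Motif restored: accctgtcccaGCGATCGCcgagcgcgaga
Both overhangs lost: accctgtcccaGCGCGCcgagcgcgaga
1 overhang base kept on the bait: accctgtcccaGCGACGCcgagcgcgaga
1 overhang base kept on the prey: accctgtcccaGCGTCGCcgagcgcgaga
Bait motif lost, A shared with the prey: gcaggaacacaccctgtcccATCGCcgagc
Bait motif and 6 more bases lost, T shared: gcaggaacacacccTCGCcgagc
In the first kind the bait and prey alignments overlap over the whole motif. In the next 3 kinds the ends abut after part or all of the 2-nt overhang was lost. In the last kinds, printed from 10 bases further upstream, the bait end had receded from the break and met the prey end at a single shared base.

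The number of junctions fell in one pair only. DMSO 1 held 11939 junctions more than 10 kb from the bait and wiskostatin 1 held 4249, a log2 ratio of -1.49. DMSO 2 held 4737 and wiskostatin 2 held 5031, a log2 ratio of 0.09. Pair 1 was thus lower with wiskostatin and pair 2 slightly higher, and the mean log2 ratio was -0.70 ± 1.12 (SD, n = 2 pairs). These are junction numbers as deposited. They also depend on the amount of DNA and of reads, and the bait-only reads by which the study normalised them were not used here. Of the 11 DMSO libraries of AsiSI-MEFs in the series, the lowest held 1133 and the highest 17479 junctions.

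Where the prey came from differed in pair 1 and hardly in pair 2. Proximal prey, under 500 bp from an AsiSI motif, made up 61.7% (95% Wilson interval 60.8 to 62.6) of junctions in DMSO 1 and 72.3% (70.9 to 73.6) in wiskostatin 1. The share was 73.4% (72.1 to 74.6) in DMSO 2 and 73.2% (71.9 to 74.4) in wiskostatin 2, with overlapping intervals. Among these 4 libraries DMSO 1 stood apart, and the other 3 lay within 2 percentage points. Distal prey, those over 10 kb away from all motifs, were 24.2% of junctions in DMSO 1, 19.04% in wiskostatin 1, 24% in DMSO 2 and 24.2% in wiskostatin 2, so that wiskostatin 1 was the low library here. The intervals cover counting error only, and no molecular identifiers were used in the counting.

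Prey on chromosome 2, the chromosome of the bait, made up 25.9% of junctions in DMSO 1, 28.3% in wiskostatin 1, 30.02% in DMSO 2 and 29.7% in wiskostatin 2. The log2 ratio was 0.13 (95% counting interval 0.05 to 0.21) in pair 1 and -0.02 (-0.10 to 0.07) in pair 2. Within chromosome 2 the prey of DMSO 1 and wiskostatin 1 lay within 20 Mb of the break in 39.7% and 41.0% of cases, and those of pair 2 in 35.8% and 37.9%. Both pairs were higher with wiskostatin, by less than the width of the intervals in each. Of the 21 chromosomes, 2 had a higher share with wiskostatin in both pairs, 5 a lower share in both and 14 opposite signs.

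**Figure D1:**
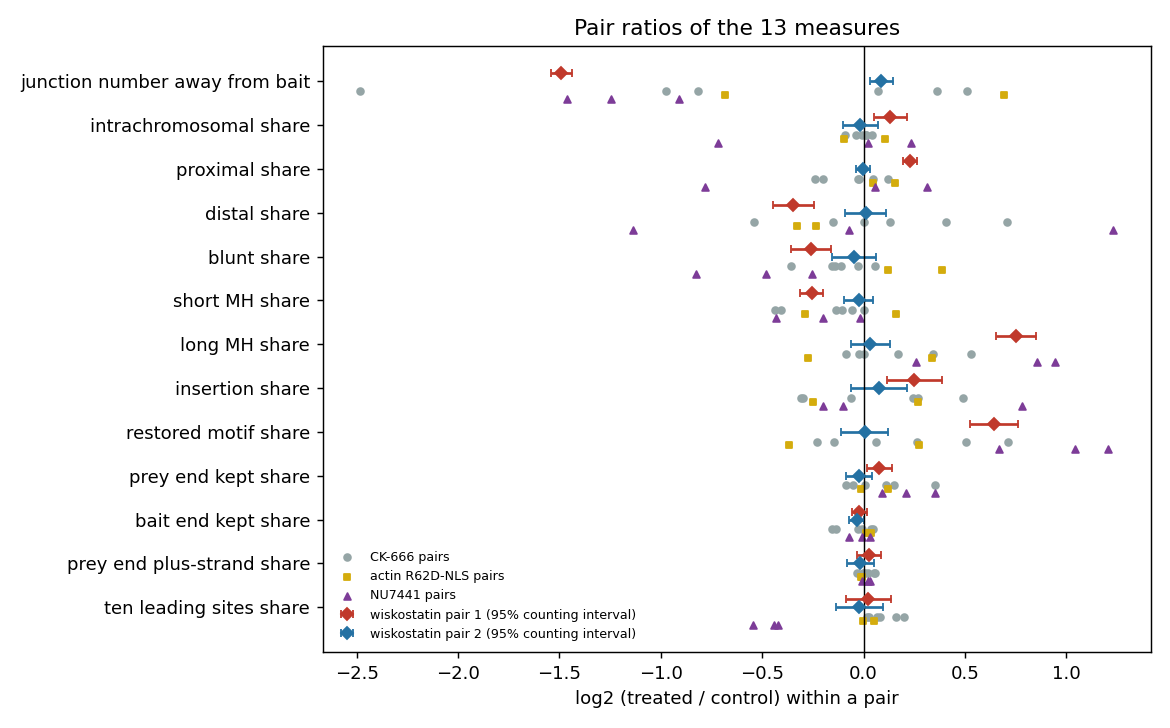
Log2 ratio of treated over control within each pair (horizontal axis) for the 13 measures described here (vertical axis). Diamonds are the wiskostatin pairs with their 95% counting intervals, small symbols the pairs of the other experiments. Pair 1 (red) lies off 0 for 10 of 13 measures and pair 2 (blue) for 1 of 13.

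Junction structure followed the same division. The overlap between bait and prey alignments on a read, or microhomology (MH), was called short at 1 to 5 nt and long from 6 nt. Long MH made up 14.7% of junctions in DMSO 1, 24.7% in wiskostatin 1, 25.3% in DMSO 2 and 25.9% in wiskostatin 2. The log2 ratio was 0.75 (0.65 to 0.85) in pair 1 and 0.03 (-0.06 to 0.13) in pair 2. Short MH was found in 50.5% and 42.3% of junctions in pair 1, DMSO first, and in 38.5% and 37.8% in pair 2. Blunt junctions, in which bait and prey abut, made up 23.9% and 19.9% in pair 1 and 21.8% and 21.1% in pair 2. Insertions made up 11% and 13.1% in pair 1 and 14.4% and 15.2% in pair 2. Blunt and short MH shares were thus lower and long MH and insertion shares higher with wiskostatin in both pairs, but in pair 2 each of the 4 counting intervals held 0. Other ways of counting turned some of these signs: with each prey position and strand counted once the log2 ratios of pair 2 were 0.0047 for blunt and -0.044 for long MH, among distal junctions alone those of insertions were -0.0025 and -0.046 and that of short MH in pair 2 was 0.017, and without the inward-facing prey described further on that of insertions was -0.20 in pair 1.

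Single overlap lengths show where the pair 1 difference lay. An overlap of exactly 8 nt, the length of the motif, made up 5.39% of junctions in DMSO 1, 9.44% in wiskostatin 1, 9.58% in DMSO 2 and 9.64% in wiskostatin 2. A 1-nt overlap made up 24.1% in DMSO 1, 20.6% in wiskostatin 1, 17.0% in DMSO 2 and 17.9% in wiskostatin 2. The overlaps reached 20 to 24 nt and the insertions 30 nt in all libraries.

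**Figure D2:**
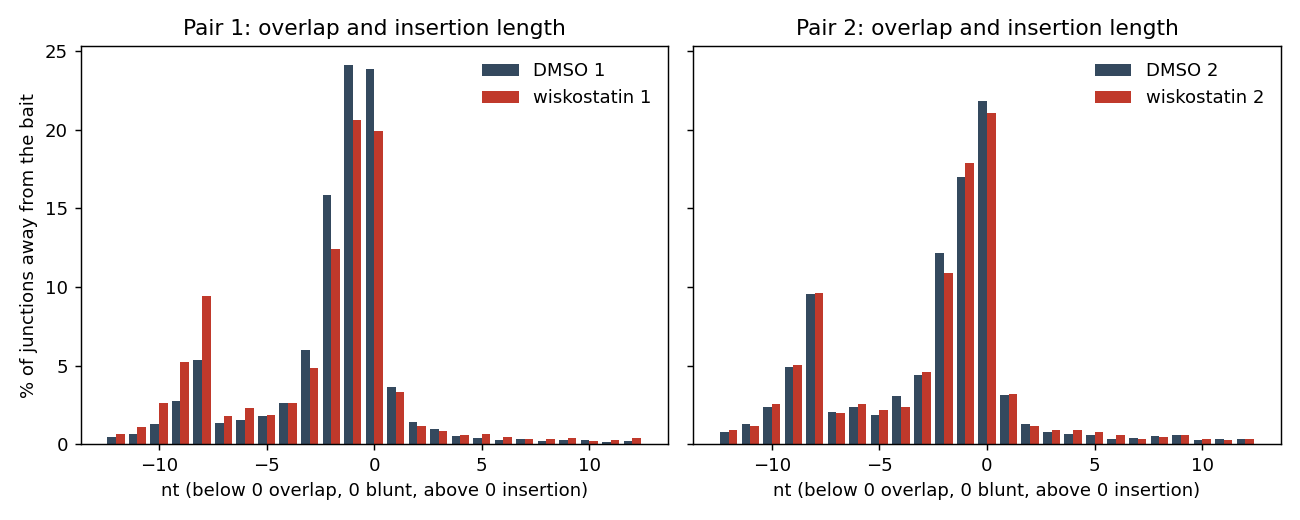
Share of junctions (vertical axis, % of junctions more than 10 kb from the bait) by length of overlap (below 0), blunt joining (0) or insertion (above 0), in nt, with DMSO in blue and wiskostatin in red. In pair 1 the peak at 8 nt is 5.39% with DMSO and 9.44% with wiskostatin, and in pair 2 both are near 9.6%.

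Most long overlaps were restored motifs, junctions in which both the bait and the prey alignment reach across the whole motif. They made up 15.5% (14.7 to 16.3) of proximal junctions in DMSO 1, 24.2% (22.7 to 25.7) in wiskostatin 1, 24.8% (23.4 to 26.2) in DMSO 2 and 24.9% (23.5 to 26.3) in wiskostatin 2. As a log2 ratio this was 0.64 (0.52 to 0.76) in pair 1 and 0.01 (-0.11 to 0.12) in pair 2. Among these 4 libraries DMSO 1 was again apart from the other 3. Within its run it was not: the other control libraries had 16.1% (actin R62D-NLS experiment) and 10.2% (NU7441 experiment). Wiskostatin 1 had the highest restored share of the 6 libraries of that run.

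Restored junctions were spread thinly over the site ends, a site end being one motif read in one direction. They were found at 564 of the 586 site ends with any junction in DMSO 1, at 518 of 539 in wiskostatin 1, at 498 of 512 in DMSO 2 and at 498 of 529 in wiskostatin 2. A site end held 2.02, 1.43, 1.73 and 1.84 of them on average, and at most 10, 5, 9 and 8, in that order of libraries. Nearly every joined site end therefore had a restored junction in each library, whatever its depth. The pipeline removes exact duplicates before deposition. Restored junctions with equal bait and prey ends were still kept more than once at some site ends. In DMSO 1, 561 restored junctions with an overlap of exactly the 8-nt motif lay at 337 site ends, at most 5 at one. The share of restored junctions moved with the number of junctions over the 26 AsiSI libraries of the series. It was 32.7 to 61.9% in the 10 libraries under 2000 junctions and 26.8 to 32.5% in the 2 with 2000 to 4000. It was 16.2 to 28.5% in the 11 with 4000 to 7000 and 10.2 to 16.1% in the 3 above 7000. DMSO 1 was one of those 3, and wiskostatin 1, DMSO 2 and wiskostatin 2 were among the 11 with 4000 to 7000. These classes pool treated and control libraries, and the 61.9% came from a library with NU7441, an inhibitor of DNA-PKcs. Over the DMSO libraries alone the share ran from 10.2 to 45.1%. The part of depth in the pair 1 difference was not tested.

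**Figure D3:**
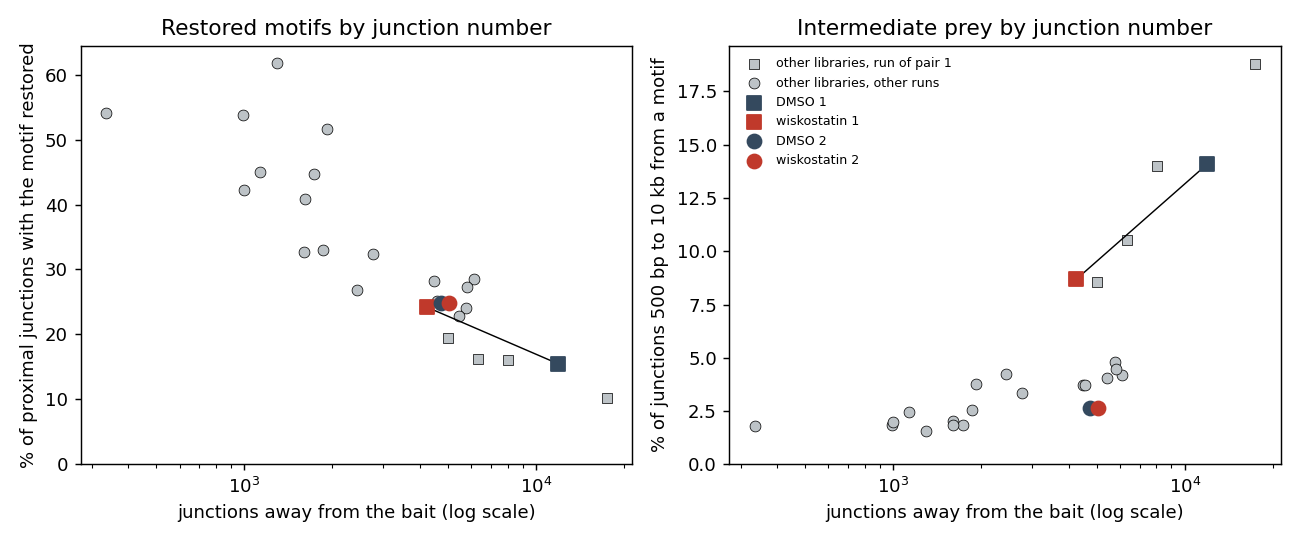
Share of proximal junctions with a restored motif (left, %) and share of junctions 500 bp to 10 kb from a motif (right, %) against the number of junctions away from the bait (log axis) in the 26 AsiSI libraries. Lines join DMSO and wiskostatin of a pair, squares mark the run of pair 1 and circles other runs. Treated and control libraries are pooled. Restored shares run from 61.9%, in a library with the inhibitor NU7441, to 10.2%, in the DMSO library with most junctions.

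The form in which both overhangs were lost and the ends abutted, GCGCGC, made up 1.19% of proximal junctions in DMSO 1, 2.41% in wiskostatin 1, 4.17% in DMSO 2 and 3.01% in wiskostatin 2. It was higher with wiskostatin in pair 1 and lower in pair 2, and both libraries of pair 2 lay above those of pair 1. Junctions with the bait motif and 6 more bases lost and a shared T made up 2.16% in DMSO 1, 2.05% in wiskostatin 1, 0.978% in DMSO 2 and 1.03% in wiskostatin 2. Here both libraries of pair 2 lay below those of pair 1, and the intervals overlapped within each pair.

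A bait end inside the 8-bp motif was found in 67.9% of junctions in DMSO 1, 66.9% in wiskostatin 1, 70.0% in DMSO 2 and 68.3% in wiskostatin 2. The log2 ratio was -0.02 (-0.06 to 0.01) in pair 1 and -0.03 (-0.07 to 0.004) in pair 2. Both pairs were lower, and both counting intervals held 0. The whole motif was lost from the bait in 25.6%, 21.2%, 16.7% and 17.6% of junctions in the same order, and bait sequence was read beyond the motif in 6.56%, 11.9%, 13.4% and 14.1%. Loss of the whole motif was thus less frequent, and sequence beyond it more frequent, in wiskostatin 1 than in DMSO 1. At most 18 bases were missing in any library, so longer resection of the bait end was not measured in these tables.

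The bait end, as aligned, differed with the prey. With distal prey, which have no AsiSI end to pair with, the bait lacked 3 to 5 bases, the range between a kept and a removed overhang, in 65.0% (63.2 to 66.7) of junctions in DMSO 1 and 59.8% (56.4 to 63.2) in wiskostatin 1. It was 65.4% (62.6 to 68.1) in DMSO 2 and 62.4% (59.6 to 65.0) in wiskostatin 2. With proximal prey it was 32.7%, 28.3%, 31.6% and 29.9%. Both kinds were lower with wiskostatin in both pairs, with separate intervals in pair 1 and overlapping ones in pair 2. At proximal prey the bait alignment can run on into the identical motif of the prey, so restored junctions hide the true bait end. The aligned bait lacked 0 bases in 12.7% to 22.8% of proximal junctions and in 1.42% to 2.47% of distal ones. Proximal and distal values are therefore not a like comparison of the ends themselves.

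Prey ends stayed close to the cut. Prey ends inside the motif made up 46.9% of proximal junctions in DMSO 1, 49.5% in wiskostatin 1, 52.4% in DMSO 2 and 51.6% in wiskostatin 2. This gave log2 ratios of 0.08 (0.01 to 0.14) in pair 1 and -0.02 (-0.09 to 0.04) in pair 2. Among outward prey, those read away from their motif as a direct join gives, 5.09% of ends lay 50 bp or more from the motif in DMSO 1 and 3.04% in wiskostatin 1. It was 1.73% in DMSO 2 and 2.02% in wiskostatin 2. The 95th percentile of the distance was 54.3, 29, 23.3 and 23 bp. As aligned, prey ends thus lay nearer the motif with wiskostatin in pair 1. In pair 2 they differed by less than 1 bp at that percentile. Outward prey include restored junctions, in which the shared motif hides the true prey end. Restored junctions were more frequent in wiskostatin 1 than in DMSO 1, so this is not a like comparison of the prey ends themselves.

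Proximal prey were read about equally on both strands, which in outward prey stand for the ends of the break. Prey read on the plus strand made up 50.7% of proximal junctions in DMSO 1, 51.6% in wiskostatin 1, 51.4% in DMSO 2 and 50.8% in wiskostatin 2. Log2 ratios were 0.03 (-0.03 to 0.08) in pair 1 and -0.02 (-0.08 to 0.05) in pair 2. These shares include the inward-facing prey described further on, whose strand need not name the end that was joined. Without them the log2 ratios were 0.04 and -0.01. On chromosome 2, where strand decides between deletions, inversions and their reciprocal forms, plus-strand prey made up 51.1%, 49.2%, 51.6% and 50.7%.

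A second kind of proximal prey faced inward: the prey began more than 20 bp away from its motif and was read back towards it. It made up 9.90% (9.24 to 10.6) of proximal junctions in DMSO 1, 17.5% (16.2 to 18.9) in wiskostatin 1, 20.2% (18.9 to 21.5) in DMSO 2 and 21.9% (20.6 to 23.3) in wiskostatin 2. Its share was higher with wiskostatin in both pairs, by a log2 ratio of 0.82 in pair 1 and 0.12 in pair 2. Wiskostatin 2 lay above the range of the 11 DMSO libraries, 6.70% to 20.2%. The top of that range was DMSO 2 of the same pair, and the intervals of the pair overlapped. Replicate 1 of actin R62D-NLS also lay above the range, at 21.5%. In the 6 CK-666 pairs the log2 ratio ran from -0.79 to 0.25. It was 0.41 and -0.37 in the actin R62D-NLS pairs and ran from -2.18 to 0.05 in the NU7441 pairs. The prey started 57 to 65 bp from the motif at the median. Insertions were found in 47.7% to 56.3% of inward junctions and in 5.19% to 7.53% of outward junctions of the same libraries.

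The inserts of inward junctions were long and came from beside the motif. Of proximal inserts of 10 nt or more, 214 of 241 in DMSO 1, 160 of 174 in wiskostatin 1, 245 of 254 in DMSO 2 and 275 of 291 in wiskostatin 2 belonged to inward junctions. Such inserts matched the reference within 300 bp of the motif, on the strand opposite to the prey, in 79.0%, 84.4%, 81.6% and 80.0% of the inserts of inward junctions. The insert began within 2 bases of the motif's edge in 128, 112, 159 and 182 of them, and in 120, 104, 155 and 171 of these the bait read to the motif's far edge. These reads thus crossed a restored motif into the flank of the prey and then turned back along the other strand. The share of inserts that matched so differed between DMSO and wiskostatin by less than its intervals in each pair. One read of wiskostatin 2 at the motif near Arhgap21 shows the form, with the 23 inserted bases in capitals in the reference flank and in the read.
Reference flank after the motif, chr2, plus strand: CGAGCGCGAGACTGGCCGGGCCGgcgggcg
Insert in the read: CGAGCGCGAGACTGGCCGGGCCG
Prey after the insert, from chr2:20968999 on the minus strand: gcgagcagtccgcccccggg

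**Figure D4:**
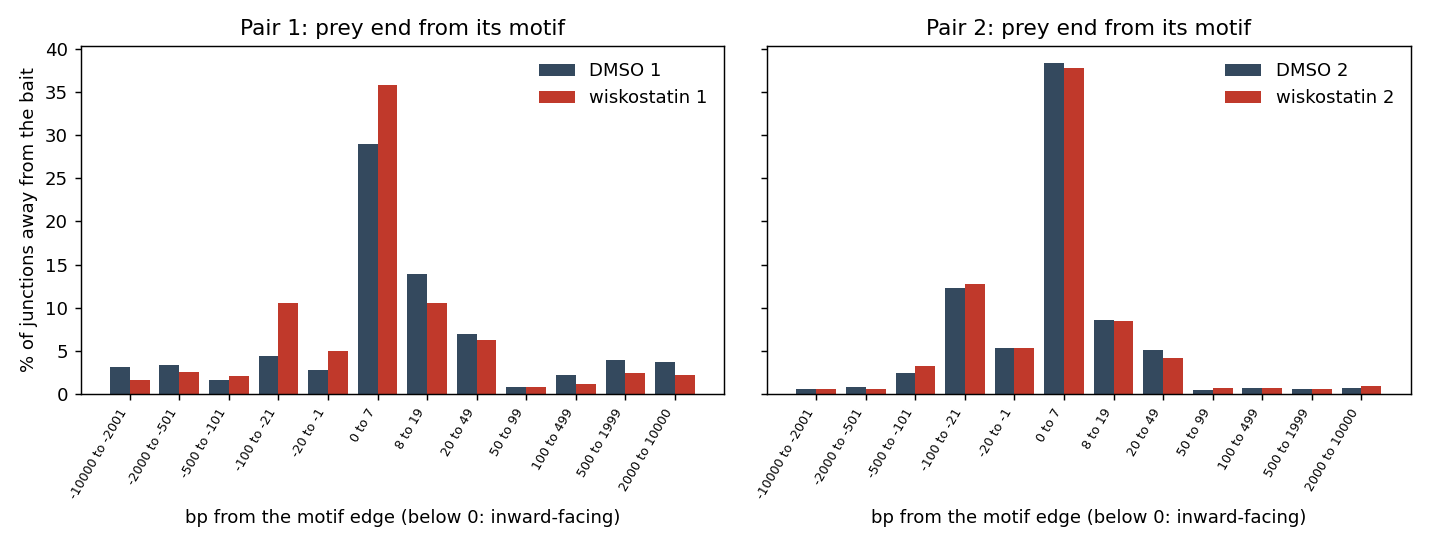
Share of junctions (vertical axis, % of junctions more than 10 kb from the bait) by signed distance of the prey end from the edge of its motif (bp, classes of unequal width), with DMSO in blue and wiskostatin in red. Classes below -20 are inward-facing prey. The tallest class is an end inside the motif, and pair 2 overlies more closely than pair 1.

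Prey at 500 bp to 10 kb from a motif marked the run of pair 1. They made up 14.1% (13.5 to 14.7) of junctions in DMSO 1 and 8.68% (7.87 to 9.57) in wiskostatin 1, but 2.62% in both DMSO 2 and wiskostatin 2. The log2 ratio was -0.70 in pair 1 and 0.00 in pair 2. In the run of pair 1 all 6 libraries lay between 8.57% and 18.8%, and the 20 libraries of other runs lay between 1.54% and 4.80%. In that run, the actin R62D-NLS pair had 14.01% without and 8.57% with the mutant, and the NU7441 pair had 18.8% with DMSO and 10.5% with the inhibitor. The library with fewer junctions had the lower share in each of these 3 pairs. In pair 1 these prey were read outward in 54.0% and 52.3% of cases and were mostly short MH junctions, 64.2% and 68.6%. The aligned prey part of a read had a median length of 69 nt in DMSO 1, 58 nt in wiskostatin 1, 76 nt in DMSO 2 and 71 nt in wiskostatin 2. The parts of run, depth and aligned length in these values were not tested.

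Among distal prey, blunt junctions made up 21.4%, 19.9%, 20.4% and 19.6% in DMSO 1, wiskostatin 1, DMSO 2 and wiskostatin 2, and insertions 13%, 12.98%, 11.9% and 11.5%. Long MH made up 6.67% (5.82 to 7.64) in DMSO 1, 11.5% (9.48 to 13.9) in wiskostatin 1, 8.27% (6.80 to 10.0) in DMSO 2 and 8.71% (7.25 to 10.4) in wiskostatin 2. The intervals were apart in pair 1 and overlapped in pair 2.

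A few windows of 10 kb took many distal prey. There were 9 windows with at least 20 distal junctions both in the other DMSO libraries and in the libraries with a Cas9 bait. They were classed as repeat windows from this recurrence. Their sequence and the mapping of reads there were not tested, so their counts do not show a preferred site of breaks. They held 10.1% of distal prey in DMSO 1, 0.865% in wiskostatin 1, 2.81% in DMSO 2 and 2.63% in wiskostatin 2. The window at chr2:98660001-98670000 held 139 junctions in DMSO 1, 5 in wiskostatin 1, 28 in DMSO 2 and 16 in wiskostatin 2. Its share of all junctions was lower with wiskostatin in both pairs, with overlapping intervals in pair 2. The share of all junctions in the 9 windows ran from 0.747% to 26.8% over the 11 DMSO libraries, and the value of DMSO 1, 2.66%, was near their median of 2.70%. Outside these windows, the share of distal prey at most 3 kb from a gene start was 24.9%, 25.2%, 23.9% and 24.5%, and the share elsewhere in genes was 37.9%, 37.7%, 38.2% and 40.9%. These shares differed by less than their intervals in each pair. Distal prey rarely recurred at one base: of 763 distal positions of wiskostatin 1 outside the windows, 19 were also found in DMSO 1.

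The same sites led with and without wiskostatin. Proximal junctions were found at 328 of the 1108 motifs other than the bait, 311 in DMSO 1, 291 in wiskostatin 1, 277 in DMSO 2 and 288 in wiskostatin 2. The 10 leading sites by mean share in the DMSO libraries took 23.3%, 23.6%, 25.1% and 24.8% of proximal junctions, with log2 ratios of 0.02 (-0.09 to 0.13) and -0.02 (-0.14 to 0.09). Since the DMSO libraries chose these sites, their shares there are not independent of the choice. Of the 10, 9 were among the first 10 of wiskostatin 1 and 9 among the first 10 of wiskostatin 2. Of the 20 leading sites, 10 lay on chromosome 2 and 16 were on the study's list of 97 frequently cut sites.

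Romo1, which encodes a mitochondrial protein tied to reactive oxygen species, led or came second in each library. Its motif at chr2:156144260-156144267, in an untranslated region, took 236 junctions (3.20%) in DMSO 1, 106 (3.45%) in wiskostatin 1, 152 (4.37%) in DMSO 2 and 171 (4.64%) in wiskostatin 2. Arhgap11a has its motif in a coding exon at chr2:113847994-113848001. It took 234, 87, 122 and 103 junctions in the same order, 3.18% and 2.83% in pair 1 and 3.51% and 2.80% in pair 2. Both pairs were lower, with log2 ratios of -0.16 and -0.33. Nup214, which encodes a nuclear pore protein, was joined at an intronic motif, chr2:31974701-31974708, by 2.67% and 3.19% of proximal junctions in pair 1 and 2.99% and 2.82% in pair 2. Dnmt3b, the gene of a de novo DNA methyltransferase, has its motif in an untranslated region at chr2:153649703-153649710 and took 2.32% and 2.18% in pair 1 and 3.02% and 2.91% in pair 2.

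The motif near Arhgap21 held rank 1 in wiskostatin 1 with 3.71% and rank 3 in DMSO 1 with 2.95%, but rank 8 in both libraries of pair 2, with 1.99% and 1.93%. Fisher's exact test gave an adjusted p of 0.0017 between the 2 wiskostatin libraries and of 0.12 between the 2 DMSO libraries. Within pairs the adjusted p of this exact test was 0.93 and 1, with an unadjusted p of 0.043 in pair 1. Pip4k2a, which encodes a phosphoinositide kinase, differed between the 2 DMSO libraries, 1.62% against 0.662%, with an adjusted p of 0.0050. Its log2 ratios ran opposite ways, -0.53 in pair 1 and 0.81 in pair 2. Samhd1, the gene of a dNTP hydrolase, took 1.93% and 2.21% in pair 1 and 2.33% and 2.47% in pair 2. Mex3a, which encodes an RNA-binding protein, took 1.77% and 1.17% in pair 1 and 2.16% and 2.01% in pair 2.

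The other leading sites were those in or nearest to Gm13610, Egfl7, Rcor1, Ube2d2a, Fign, Cdk12, Fam160b1, 2410002F23Rik, Slc7a6os, Mkx, Cntln and Gm42690. Over the 20 leading sites the log2 ratio ran from -0.91 to 0.34 in pair 1 and from -0.61 to 0.81 in pair 2. The share was higher with wiskostatin in both pairs at 3 sites, lower in both at 9 and opposite at 8. Over the 196 sites with at least 20 junctions in the 4 libraries together, it was higher in both at 49 and lower in both at 59. The DMSO libraries chose the 20 leading sites, so the ratios there are not independent of the choice. None of the 20 changed by a log2 ratio of 0.5 or more in the same direction in both pairs.

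Over all sites, 196 motifs had at least 20 proximal junctions in the 4 libraries together. A log2 ratio of at least 0.5 in both pairs was found at 14 of them (7.14%) and of -0.5 or less in both at 9 (4.59%). Among the 106 sites with at least 50 junctions the balance was turned, with 1 higher and 5 lower, and at a log2 ratio of 0.25 it was 21 higher and 24 lower. The sign was the same in both pairs at 108 of the 196 sites, and 4 sites moved by 0.5 in opposite directions. Fisher's exact test on the junction counts of the 2 libraries of a pair, which compares those libraries only, called 0 of 196 sites in pair 1 (0%) and 0 of 196 in pair 2 (0%) after Benjamini-Hochberg adjustment. Without adjustment p was under 0.05 at 10 sites in pair 1 and at 7 in pair 2. Between the 2 DMSO libraries, which were given the same treatment, it was under 0.05 at 10 sites. The sites that moved held 37 junctions at the median and 74 at most, against 52.5 at the median of the 196, and 5 of the 23 were frequently cut sites against 91 of the 196.

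Spearman's rank correlation of the site shares, given as a description over the 196 sites, was 0.82 between DMSO 1 and wiskostatin 1 and 0.84 between DMSO 2 and wiskostatin 2. It was 0.86 between the 2 DMSO libraries and 0.77 between the 2 wiskostatin libraries. Both values within pairs lay between these.

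**Figure D5:**
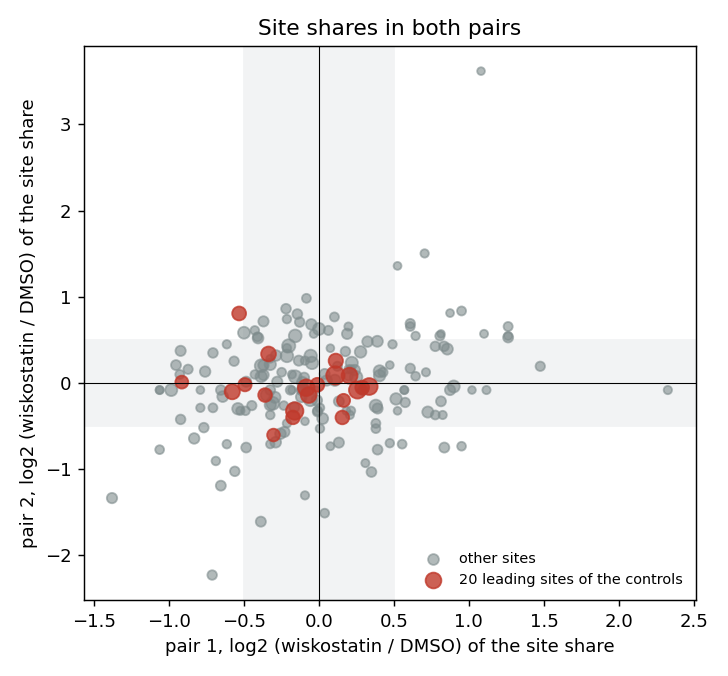
Log2 ratio of wiskostatin over DMSO of a site's share of proximal junctions in pair 1 (horizontal) and pair 2 (vertical) for the 196 sites with at least 20 junctions. Point area grows with the square root of the junction number, red points are the 20 leading sites of the DMSO libraries, and grey bands mark ratios between -0.5 and 0.5. Points far from the centre are small, and no red point lies outside both bands in the same direction.

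At the low end, Tmem80, which encodes a transmembrane protein, was joined at an intronic motif at chr7:141328286-141328293. It held 40 junctions in DMSO 1 and 6 in wiskostatin 1, 15 in DMSO 2 and 6 in wiskostatin 2, with log2 ratios of -1.38 and -1.34. Cmip, at its motif at chr8:117257067-117257074, held 25 and 6 junctions in pair 1 and 15 and 3 in pair 2. Rtbdn held 23, 7, 24 and 8 in the same order, Memo1 24, 6, 20 and 9, and Pfkfb2, a gene of glycolytic control, 17, 3, 10 and 6. Another Cmip motif, which starts at chr8:117256841, was not among these. Fisher's exact test gave it an unadjusted p of 0.36 in pair 1 and 0.71 in pair 2.

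At the high end the counts were smaller. Pik3ca, the gene of a PI3-kinase catalytic subunit, held 8 junctions in DMSO 1 and 7 in wiskostatin 1. It held 0 of 3476 in DMSO 2, so that its share there may be as high as 0.0863% (3 counts in that library). In wiskostatin 2 it held 6 of 3682, a share 1.89 times that value. The counting interval of its log2 ratio in pair 2, -0.53 to 7.77, held 0. Snhg12 held 12 and 8 junctions in pair 1 and 2 and 7 in pair 2. Ggh, which encodes a folate hydrolase, held 11 and 11 in pair 1 and 7 and 12 in pair 2. Vps26b, a retromer subunit gene, held 7, 4, 3 and 9, and Cped1 held 7, 7, 5 and 8. None of these 10 sites passed the adjusted Fisher's exact test in either pair.

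The ratios were then set against those of CK-666, which blocks the ARP2/3 complex itself, in 6 pairs with controls of their own. The difference of the mean log2 ratios was tested for the 13 measures by an exact two-sided permutation test of 2 against 6 pairs, whose smallest possible p is 0.036. No measure reached an unadjusted p under 0.05, and so none an adjusted one. An adjusted p under 0.05 would have needed most of the 13 measures at that smallest possible p together. The smallest unadjusted p was 0.14, for the proximal share and for the 10 leading sites. The junction number changed by -0.70 on the log2 scale with wiskostatin and by -0.55 ± 1.12 (SD, n = 6 pairs) with CK-666, which ran from -2.48 to 0.51 between pairs. The spread between pairs was larger than either mean, so these pairs do not show whether the inhibitors act alike.

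The other experiments are given side by side. The restored motif share had log2 ratios of 0.64 and 0.01 with wiskostatin, 0.27 and -0.37 with actin R62D-NLS, which cannot polymerise, and 0.67 to 1.21 in the 3 pairs with NU7441, an inhibitor of DNA-PKcs. The junction number had log2 ratios of -1.49 and 0.09 with wiskostatin, -0.68 and 0.69 with actin R62D-NLS and -1.46 to -0.91 with NU7441. In the NU7441 experiment every pair had fewer junctions and a higher restored share, a combination also found in wiskostatin pair 1, actin R62D-NLS pair 1 and CK-666 pairs 2, 5 and 6. Over the 6 CK-666 pairs the log2 ratio of the restored share ran from -0.23 to 0.71. For each of the 13 measures, both wiskostatin libraries lay inside the range of the 11 DMSO libraries of the series. That range spans all runs and includes DMSO 1 and DMSO 2, so lying inside it says little about a pair. In the run of pair 1 there were only 2 DMSO libraries. Wiskostatin 1 lay inside their range for the distal share and outside it for the other measures. Its restored motif share was 24.2% against 10.2% to 15.5%, and its long MH share 24.7% against 10.9% to 14.7%. The part of depth was not tested.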

How the data were processed

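HTGTS junctions were read from the tables of the 4 libraries and, for comparison, of the other HTGTS libraries. The deposited tables hold 1 row per junction with bait, prey and read coordinates on mm10, and no count or normalised value. The authors aligned MiSeq reads with the Burrows-Wheeler Aligner, filtered them with the translocation pipeline at default settings, which removes exact duplicates, and kept a mapping quality over 30. Wiskostatin is given as 3 µM in the methods and as 3 mM in a legend.

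Prey on the autosomes, X or Y were kept where they lay over 10 kb from the bait break (4249 to 11939 per library). All 1109 AsiSI motifs were found in the mm10 genome and annotated with GENCODE M21. The overlap was taken from the ends of the bait and prey alignments on the read. Shares have 95% Wilson intervals, and ratios within a pair have 95% intervals from counting error. Site ratios used a pseudocount of 0.5. Pairing came from the replicate numbers and the shared sequencing run. Deviations of site shares from the group mean correlated at 0.33 between same-numbered libraries over 196 sites. Nothing says that replicates came from separate cultures. Fisher's exact tests were tested on simulated data. Sites were named by the gene they lie in or the nearest start: the 20 leading sites in the DMSO libraries, and the 5 highest and 5 lowest mean log2 ratios with 1 sign in both pairs. The recurrent windows were chosen after the data were seen. The comparison, measures and lists were chosen with earlier results of these data known. Python 3.11.15, pandas 2.3.3 and scipy 1.17.1 were used.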

Additional observations from a re-analysis of the deposited data

Results flagged for a closer look

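Opposite directions in every pair marked 2 of the 13 measures. With 2 pairs in each experiment, such a pattern of signs can arise by chance in a screen of 13 measures. The blunt share was lower with wiskostatin in both pairs and higher with actin R62D-NLS in both pairs, a difference of mean log2 ratios of -0.41. The bait end kept share was also lower in both wiskostatin pairs and higher in both actin R62D-NLS pairs, a difference of -0.051. The counting intervals of both wiskostatin pairs and of pair 2 of actin R62D-NLS held 0 for this share, and with inward-facing prey left out wiskostatin pair 1 was 0.0028. With each prey position and strand counted once, the blunt share of wiskostatin pair 2 was 0.0047. These differences were not tested because each experiment has only 2 pairs.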

How the results depend on the processing

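The log2 ratios, as means over pairs, moved by less than their SD between pairs for 117 of 126 values under the alternatives other than leaving out a pair. That SD rests on 2 pairs and was wide where they disagreed, 1.12 for the junction number and 0.51 for the long MH share. Staying within it is therefore no evidence of stability for such measures. Leaving out inward-facing prey, an alternative chosen after seeing the data, moved the insertion share to -0.080, the prey end kept share to 0.11, the bait end kept share to -0.013 and the share of the 10 leading sites to -0.034. Counting each prey position and strand once moved the prey end kept share to 0.14, the bait end kept share to -0.058 and the share of the 10 leading sites to 0.15. With junctions near the bait included the bait end kept share was -0.038, and among distal junctions alone the insertion share was -0.024. The cause was not tested. With 2 pairs, leaving one out gives the other pair's value, so direction turned for the 7 measures whose pairs had opposite signs. Without the replicate block, as the log2 ratio of group means, the junction number was -0.85, the long MH share 0.34 and the restored motif share 0.29, and no measure moved by more than its SD. The 23 sites moved in both pairs became 45 at a log2 ratio of 0.25, 2 at 1, 6 with at least 50 junctions and 11 with a pseudocount of 2. With 1 pair alone, where the same threshold applies only once, it was 62 to 69 sites. Under the alternatives that kept both wiskostatin pairs, no measure differed from CK-666 at an adjusted p under 0.05 in the exact permutation test. The smallest possible unadjusted p was 0.036 there, so most measures would have had to reach it together. This outcome is therefore no evidence of stability. With a pair left out the test could not reach 0.05 at all, so nothing is drawn from it. A site of 20 junctions over 4 libraries has few in each, which limits the values of single sites.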
